A study of Homo sapiens with 8 samples.

Results

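MDA-MB-453 is a human breast cancer cell line of luminal type that carries the androgen receptor and lacks the estrogen receptor. Before treatment the cells spent 3 days without phenol red, in 5% serum stripped with charcoal to remove most steroids, and then received vehicle or 10 nM dihydrotestosterone (DHT), the most potent natural androgen, for 4, 16 or 48 h. Total RNA was hybridised to Affymetrix oligonucleotide arrays, with 2 biological replicates for each of the 4 groups. The comparison described here is DHT for 48 h against vehicle, which uses 4 of the 8 arrays. It covers 19775 genes, each read by 1 probe set that names only that gene; of several, the one with the highest mean over all 8 arrays was taken. The labels give the vehicle arrays no time, so 48 h of DHT and the time spent in culture cannot be told apart, and the receptor was not blocked in any group. No genotype was altered, and all arrays come from 1 cell line.

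The androgen receptor is a ligand-activated transcription factor. DHT releases it from chaperones in the cytoplasm, and it then binds DNA elements made of paired half-sites, mostly in distant enhancers that FOXA1 holds open, to raise or lower nearby genes. In the apocrine type of breast tumour, for which this line is a common model, the receptor takes the place of the estrogen receptor as the main steroid receptor. Early target genes answer within hours, whereas changes in differentiation, metabolism and cell division take days.

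The labelled cell type was checked against its markers. Over the vehicle and 48 h arrays, log2 signals were 12.51 to 12.75 for the luminal keratin KRT8, 13.70 to 13.92 for KRT18, 13.61 to 14.52 for the luminal factor GATA3, 11.64 to 12.51 for FOXA1 and 12.85 to 13.53 for ERBB2. The estrogen receptor gene ESR1 read 8.23 to 8.62 and the progesterone receptor gene PGR 7.31 to 7.43. Probe sets differ in how strongly they bind, so levels of different genes are not ranked here, and the deposited values carry no detection calls. Replicates correlated at 0.9963 (vehicle) and 0.9967 (48 h) across genes. As a sign of RNA quality, the control probe sets at the 3′ end of ACTB exceeded those at the 5′ end by 0.42 and 0.51 log2 units in the vehicle arrays and by 0.52 and 0.95 in the 48 h arrays; the higher value belonged to DHT 48 h replicate 2, and counts without that array are given in the next paragraph. In RNA from whole cultures, a smaller share of cells of one kind and less RNA per cell cannot be told apart.

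After 48 h, 619 genes were higher and 1262 lower than in vehicle at an adjusted p below 0.05 by limma, which is 3.13% and 6.38% of all genes tested. The shares of 3.13% and 6.38% are the background for every list count below. The median log2 difference over all genes was 0.01. A change of at least 2-fold was reached by 81 of the higher genes (0.41% of all genes) and 158 of the lower genes (0.799%). The balance of rises and falls depended on scaling: with the arrays set to an equal median of 22 housekeeping genes, the median of all genes moved by 0.12 and the counts became 1121 higher and 738 lower, so that 60.3% of calls were rises in place of 32.9%. With 2 arrays a group the counts also leaned on single arrays: leaving out vehicle replicate 1 gave 293 and 551, DHT 48 h replicate 1 gave 333 and 501, and DHT 48 h replicate 2 gave 339 and 986. An exact permutation test of a single gene over 2 against 2 arrays cannot give a two-sided p below 0.333. The p-values therefore come from the model that pools the spread over genes. Where both arrays of 1 group lie beyond both of the other in a called gene, that describes its values. It is not separate evidence, since the test chose the gene, and the share of all genes with such a gap was not counted. Leaving out a vehicle or 48 h array leaves 1 array in its group and widens the standard error. Calls can then be lost without that array being unusual. In the paragraphs that follow, a list's count without 1 array is given where it differs by over 1.5 times.

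**Figure D1:**
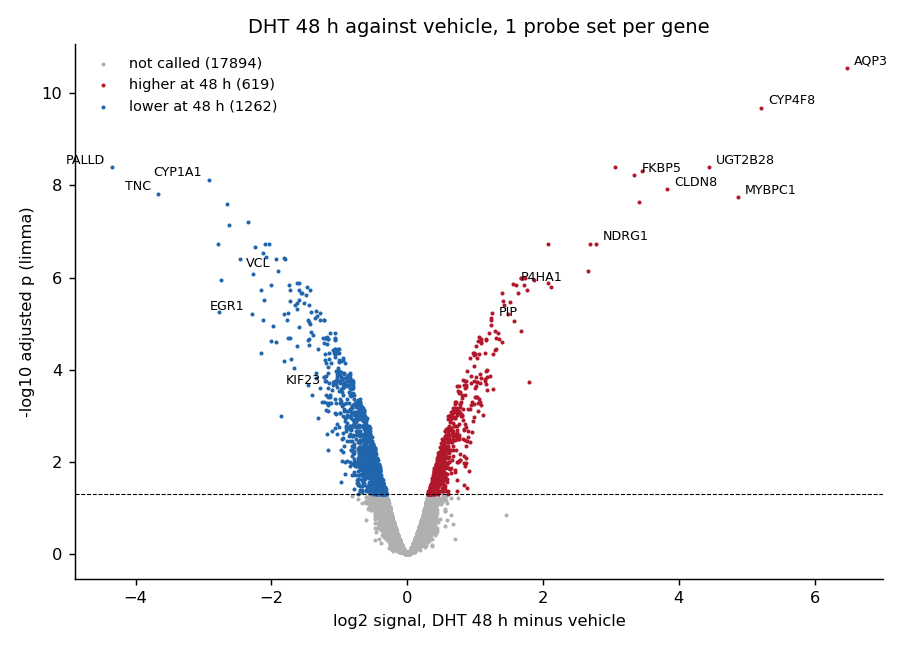
Log2 difference between DHT 48 h and vehicle (x axis) against the −log10 adjusted p of limma (y axis), 1 point per gene, with 2 arrays a group. Red points are the 619 higher genes, blue points the 1262 lower genes and grey points the rest, and the dashed line marks an adjusted p of 0.05. AQP3 at 6.47 and PALLD at −4.35 are the extremes in either direction.

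The largest rise was in AQP3, the aquaglyceroporin that passes water and glycerol. Its log2 signal was 8.43 and 8.38 in the vehicle arrays and 14.76 and 14.99 in the 48 h arrays, a rise of 6.47 ± 0.10 (SE, n = 2 a group) or 88.9-fold (adjusted p = 2.9e-11). The other 2 probe sets for AQP3 rose by 3.86 and 3.65. CYP4F8, a cytochrome P450 that hydroxylates fatty acids and prostaglandins, went from 6.21 and 6.33 to 11.44 and 11.51, a rise of 5.21 ± 0.11 (36.9-fold, adjusted p = 2.1e-10). MYBPC1, a myosin-binding protein of slow muscle fibres, went from 5.53 and 5.55 to 10.22 and 10.61 (4.87 ± 0.17, 29.3-fold, adjusted p = 1.8e-08). None of the vehicle arrays overlapped the 48 h arrays in these genes, and the gap between groups was many times the gap between replicates.

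Further genes with large rises fell into a few kinds. UGT2B28, which attaches glucuronic acid to androgens, read 7.72 and 7.76 in vehicle and 11.99 and 12.37 at 48 h (4.44 ± 0.13, 21.7-fold, adjusted p = 4e-09). CLDN8, a tight junction claudin, read 7.32 and 7.22 against 10.96 and 11.24 (3.83 ± 0.13, 14.2-fold, adjusted p = 1.2e-08). DDC, the decarboxylase that makes dopamine and serotonin, read 7.92 and 8.23 against 11.48 and 11.50 (3.42 ± 0.13, 10.7-fold, adjusted p = 2.2e-08). FKBP5, the co-chaperone that is the standard readout of steroid receptor activity, read 10.81 and 10.67 against 13.97 and 14.18 (3.34 ± 0.10, 10.1-fold, adjusted p = 6.1e-09), and its 2 other probe sets rose by 3.24 and 3.42. Among the next were C1orf116 (3.06 ± 0.09), the stress-response gene NDRG1 (2.78 ± 0.13), the scaffold protein IQGAP2 (2.69 ± 0.12), the adrenergic receptor ADRA2A (2.66 ± 0.15), the lipoprotein receptor VLDLR (2.12 ± 0.13), CHPT1, which makes phosphatidylcholine (2.07 ± 0.10), and MIR210HG, the host transcript of a hypoxia-induced microRNA (2.07 ± 0.12).

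The largest fall was in PALLD, or palladin, which cross-links actin filaments. Its log2 signal was 11.98 and 11.85 in vehicle and 7.51 and 7.63 at 48 h, a difference of −4.35 ± 0.13 (20.4-fold lower, adjusted p = 4e-09). 2 of its other probe sets fell by 4.14 and 3.00, while the dimmest, with a mean of 4.8, differed by −0.09. TNC, the matrix protein tenascin C, read 12.70 and 12.73 against 8.82 and 9.26 (−3.67 ± 0.13, 12.8-fold lower, adjusted p = 1.5e-08). CYP1A1, which oxidises polycyclic aromatic compounds, read 10.03 and 10.10 against 7.08 and 7.21 (−2.92 ± 0.09, adjusted p = 7.5e-09). SHISA2 read 9.60 and 9.35 against 6.57 and 6.81 (−2.79 ± 0.13). DOCK2, a Rac activator, read 8.18 and 8.10 against 5.55 and 5.20 (−2.77 ± 0.20). Both 48 h arrays lay below both vehicle arrays in all 5. Falls of 2.15 to 2.74 were seen in the annexin ANXA3 (−2.74 ± 0.16), SIPA1L2 (−2.66 ± 0.10), the adhesion protein AMIGO2 (−2.63 ± 0.11), PHLDB2 (−2.47 ± 0.13), the cytolinker EPPK1 (−2.35 ± 0.10), ATXN1 (−2.24 ± 0.11) and the interferon-inducible GTPase GBP2 (−2.15 ± 0.20). The other 4 probe sets for PHLDB2, with means of 4.0 to 6.1, differed by −0.72 to 0.12, and the other probe set for DOCK2 by 0.08. Of the other probe sets for ATXN1, the brightest differed by −2.2 and the rest by −0.68 to −0.08. Without probe sets whose names end in _s_at or _x_at, which can match several transcripts, ATXN1 differed by −0.68 (adjusted p = 0.106).

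**Figure D2:**
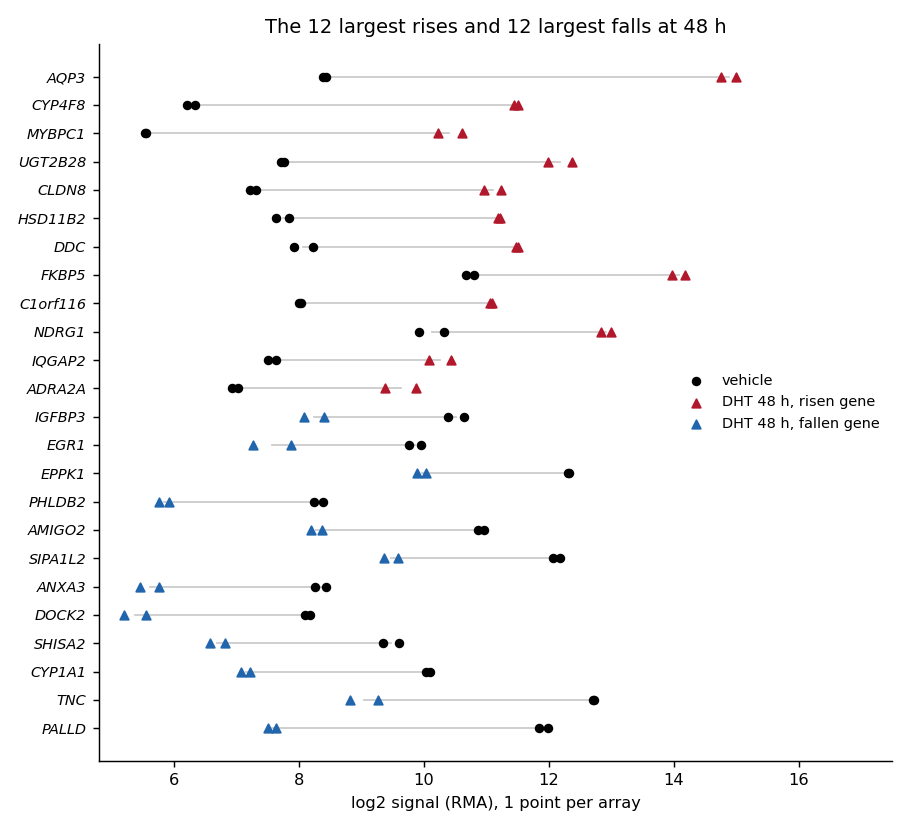
Log2 signal (x axis) of the 12 genes with the largest rises and the 12 with the largest falls at 48 h, 1 point per array: black circles are the 2 vehicle arrays, triangles the 2 arrays of DHT 48 h, and grey lines join the group means. In each of these genes the triangles lie to one side of the circles, from 14.76 and 14.99 against 8.43 and 8.38 in AQP3 to 7.51 and 7.63 against 11.98 and 11.85 in PALLD.

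Of 41 genes known as targets of the receptor in prostate cells and other tissues, 12 rose and 6 fell (3 fell without DHT 48 h replicate 1), and the list median was 0.07. Beside FKBP5, C1orf116, NDRG1 and IQGAP2, the risers included AZGP1, a secreted lipid-mobilising glycoprotein (1.67 ± 0.10), the matrix protease ADAMTS1 (1.48 ± 0.11), EAF2, a partner of the elongation factor ELL (1.16 ± 0.12), and KRT19 (0.68 ± 0.09). Among those that fell were ELL2, itself an elongation factor (−1.05 ± 0.15), and the prostate transporter SLC45A3 (−0.83 ± 0.12). Dimmer probe sets differed by −0.26 for SLC45A3, −0.65 to −0.12 for ELL2, 0.11 and 0.08 for EAF2 and 0.31 for IQGAP2, and none passed. Those for ADAMTS1 (1.54) and C1orf116 (2.71 and 3.71) rose. On this list 29.3% rose and 14.6% fell, against 3.13% and 6.38% of all genes. The prostate targets KLK3, which encodes prostate-specific antigen, and TMPRSS2 did not pass the test: KLK3 read 10.37 and 10.40 in vehicle and 10.50 and 10.41 at 48 h (0.07 ± 0.09, adjusted p = 0.71), and TMPRSS2 read 9.92 and 9.73 against 9.72 and 9.76 (−0.08 ± 0.10, adjusted p = 0.68). Of 17 prostate epithelial markers as a whole, 0 rose and SLC45A3 fell; 1 of the 17 had an unadjusted p below 0.05.

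Among genes that make and clear steroids, UGT2B28 is given above. HSD11B2, which turns cortisol into inactive cortisone, read 7.63 and 7.85 in vehicle and 11.19 and 11.22 at 48 h (3.46 ± 0.10, 11-fold, adjusted p = 4.8e-09). SRD5A1, the 5-alpha reductase that makes DHT from testosterone, read 9.18 and 9.13 against 10.34 and 10.54 (1.29 ± 0.10, 2.44-fold, adjusted p = 1.4e-05). STS, the sulfatase that frees steroids from their sulfates, went the other way, from 11.27 and 11.18 to 9.41 and 9.73 (−1.66 ± 0.11, 3.15-fold lower, adjusted p = 3.9e-06). Of the 35 genes on the steroid metabolism list, 3 rose (8.57%, against 3.13% of all genes) and 2 fell (5.71%, against 6.38%), 1 of which, HSD17B6, did not pass when vehicle replicate 1 (adjusted p = 0.236) or DHT 48 h replicate 1 (adjusted p = 0.267) was left out. In each of the 3 risers both 48 h arrays stood above both vehicle arrays.

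Several genes that glucocorticoids also induce rose. NFKBIA, the inhibitor that holds NF-kB in the cytoplasm, read 12.08 and 12.24 in vehicle and 13.87 and 13.79 at 48 h (1.67 ± 0.10, 3.18-fold, adjusted p = 1e-06). TSC22D3, the glucocorticoid-induced leucine zipper, read 11.38 in both vehicle arrays and 12.13 and 12.10 at 48 h (0.74 ± 0.10), while its 2 dimmer probe sets differed by 0.48 and 0.21 and did not pass. ERRFI1, a brake on epidermal growth factor receptors, read 12.10 and 12.13 against 11.28 and 11.36 (−0.80 ± 0.09). Of 23 genes on this list 5 rose and 3 fell; 3 rose without vehicle replicate 1 or DHT 48 h replicate 2, and 1 fell without vehicle replicate 2 or DHT 48 h replicate 1. The glucocorticoid receptor gene NR3C1 itself fell by 0.59 (± 0.10, adjusted p = 0.0035). Without _s_at and _x_at probe sets it differed by −0.51 (adjusted p = 0.415). Among 23 chaperones and coregulators of the androgen receptor, 2 rose, FKBP5 and the coactivator NCOA1 (0.51 ± 0.09), and 4 fell, 2 of them also without vehicle replicate 1 or DHT 48 h replicate 1. Those 2 were FHL2, a LIM-domain coactivator (−1.86 ± 0.27), and the pioneer factor FOXA1 (−0.72 ± 0.10).

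Genes of apocrine differentiation, the secretory state of sweat-gland type seen in some breast tumours, were the next group. Of 33 such genes, 13 rose (39.4%, against 3.13% of all genes) and 1 fell, and the list median was 0.19. Among the 13 are CYP4F8, MYBPC1, UGT2B28, DDC, SRD5A1 and AZGP1, whose rises are already given above. The list was written with earlier results of these data known, so its direction is not independent evidence. PIP, the prolactin-induced protein found in apocrine secretions, read 9.97 and 10.05 in vehicle and 11.26 and 11.23 at 48 h (1.24 ± 0.09, 2.36-fold, adjusted p = 8.1e-06). AZGP1 read 12.49 and 12.61 against 14.20 and 14.23. ALCAM, a cell adhesion protein, read 11.51 and 11.65 against 13.26 and 13.45 (1.77 ± 0.11, 3.41-fold, adjusted p = 1.8e-06). ABCC11, the transporter that sets wet or dry earwax and works in apocrine glands, read 10.33 and 10.40 against 11.63 and 11.58 (1.24 ± 0.09), although its other, dimmer probe set differed by only 0.20. SCGB2A1, a secretoglobin, read 5.68 and 5.57 against 6.25 and 6.35 (0.67 ± 0.11). The 1 member that fell was KMO, an enzyme of tryptophan breakdown, from 11.20 and 11.25 to 9.35 and 9.49 (−1.80 ± 0.09, adjusted p = 4e-07).

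**Figure D3:**
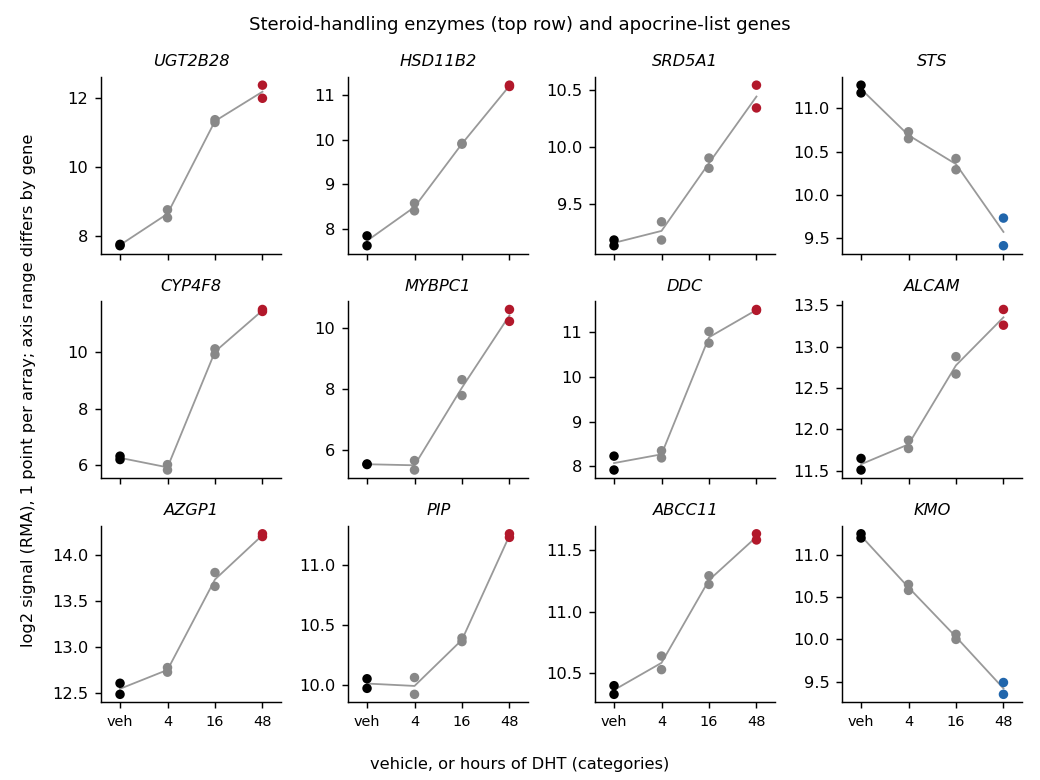
Log2 signal (y axis, with its own range in each panel) of 4 steroid-handling enzymes (top row) and 8 genes of the apocrine list (lower rows) in the vehicle arrays and after 4, 16 and 48 h of DHT (x axis, as categories), 1 point per array and a grey line through the group means. Black points are vehicle, red points rises and blue points falls at 48 h: PIP reads 11.26 and 11.23 at 48 h against 9.97 and 10.05 in vehicle, and STS reads 9.41 and 9.73 against 11.27 and 11.18.

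The general luminal programme was mixed: 14.7% of its genes rose and 26.5% fell, against 3.13% and 6.38% of all genes. Of 34 luminal identity genes, 5 rose (3 without vehicle replicate 2) and 9 fell, with a median of −0.11 that became 0.01 when housekeeping genes were set equal. GATA3 fell from 14.47 and 14.52 to 13.61 and 13.68 (−0.85 ± 0.09, 1.80-fold lower, adjusted p = 0.00013), and its 2 other probe sets fell by 1.46 and 1.16. TFF1, a secreted trefoil peptide that estrogen induces, fell from 10.19 and 10.37 to 8.51 and 8.55 (−1.75 ± 0.13, 3.37-fold lower, adjusted p = 6e-06). AGR2, a protein disulfide isomerase of secretory cells, fell from 14.08 and 14.10 to 12.64 and 12.68 (−1.43 ± 0.09). The risers included TOX3, a chromatin protein linked to breast cancer susceptibility (1.15 ± 0.13), and the prolactin receptor PRLR (0.88 ± 0.15). ESR1 (0.22 ± 0.10, adjusted p = 0.21), PGR (−0.04 ± 0.10, adjusted p = 0.86), KRT8 (−0.04 ± 0.14, adjusted p = 0.91) and KRT18 (−0.19 ± 0.09, adjusted p = 0.25) did not pass the test. Of 21 genes that estrogen induces in breast cells, 4 rose, among them the hormone STC2 (0.99 ± 0.14), and 3 fell, including TFF1 and FHL2.

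Cell division genes were lower as a group. Of 77 genes of the mitotic spindle, kinetochore and cytokinesis, 61 fell and 0 rose (79.2% lower, against 6.38% of all genes), with a median of −0.65, and 69 of the 77 had an unadjusted p below 0.05. Leaving out vehicle replicate 1 gave 39 falls, leaving out DHT 48 h replicate 1 gave 29, and equal housekeeping genes gave 51. KIF23, the kinesin of the central spindle, read 10.09 and 9.84 in vehicle and 8.63 and 8.98 at 48 h (−1.16 ± 0.14, 2.23-fold lower, adjusted p = 0.00024), although its other, dimmer probe set differed by −0.27. The kinetochore proteins NUF2 and NDC80 fell by 1.13 ± 0.15 and 1.04 ± 0.17. KIF18A, a kinesin that aligns chromosomes, read 9.74 and 9.66 against 8.57 and 8.72 (−1.05 ± 0.11, adjusted p = 0.00011), and DLGAP5, a spindle protein, read 11.19 and 10.98 against 10.00 and 10.16 (−1.0 ± 0.16). MKI67, the proliferation marker, read 11.53 and 11.47 against 10.93 and 10.75 (−0.66 ± 0.11, adjusted p = 0.0026). Both 48 h arrays were below both vehicle arrays in each of these genes, with most changes near or under 2-fold.

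The promoters of these genes are known for a pair of elements through which the DREAM complex silences them in resting cells: the cell cycle homology region (CHR, searched as TTTGAA) and the CCAAT box (CCAAT). In RefSeq windows on GRCh38.p14 that run from 250 bases before to 50 after the start of each gene, on both strands, 42 of the 66 mitotic genes with a window held the CHR (63.6%), against 11.9% of 15384 windows for all genes tested. The CCAAT box was in 71.2% of the mitotic windows and 36.1% of all, and both were in 50% and 4.82%. Of 49 windows of DNA replication genes, 4.08% held the CHR. The windows of KIF23 (chr15:69414099-69414398, plus strand) and KIF18A (chr11:28108107-28108406, minus strand) are shown 5′ to 3′ because these genes had the largest falls on the list among those with both elements. The capitals mark the CHR and the CCAAT box on either strand.
KIF23: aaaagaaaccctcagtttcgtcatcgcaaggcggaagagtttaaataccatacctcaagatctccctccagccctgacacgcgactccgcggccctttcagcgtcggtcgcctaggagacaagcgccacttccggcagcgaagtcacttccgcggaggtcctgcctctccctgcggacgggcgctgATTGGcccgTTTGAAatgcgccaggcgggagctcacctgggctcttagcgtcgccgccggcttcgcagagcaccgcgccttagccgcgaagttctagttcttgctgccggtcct
KIF18A: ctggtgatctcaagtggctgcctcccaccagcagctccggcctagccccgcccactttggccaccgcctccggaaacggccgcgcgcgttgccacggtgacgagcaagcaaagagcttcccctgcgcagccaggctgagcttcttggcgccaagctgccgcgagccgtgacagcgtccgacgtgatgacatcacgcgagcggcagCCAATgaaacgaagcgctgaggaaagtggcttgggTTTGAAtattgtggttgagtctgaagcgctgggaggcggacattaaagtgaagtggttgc
A match of these letters is a description of the window and not evidence of binding.

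Of 59 genes of DNA replication and the G1/S transition, 16 fell and 0 rose, with a median of −0.19; with equal housekeeping genes 8 fell and 1 rose, with a median of −0.08. The test called 5 falls when vehicle replicate 1 was left out, 9 for vehicle replicate 2, and 4 for DHT 48 h replicate 1, with 1 gene then called higher. 3 members whose calls held without each array were the repressor E2F8, from 9.12 and 8.62 to 7.57 and 7.81 (−1.18 ± 0.15, adjusted p = 0.00052), the thymidylate synthase TYMS (−0.78 ± 0.10) and the thymidine kinase TK1 (−0.64 ± 0.10). CCND1, which encodes cyclin D1, read 12.80 and 12.84 against 13.09 and 13.05 (0.25 ± 0.11, adjusted p = 0.20) and did not pass the test. Of 14 inhibitors of cyclin-dependent kinases and pocket proteins, which brake the cycle, 5 fell, 9 were not called and 0 rose. The falls numbered 3 without 1 of either vehicle array or DHT 48 h replicate 2, 2 without DHT 48 h replicate 1, and 3 with equal housekeeping genes. CDKN1B, which encodes p27, fell from 12.07 and 12.08 to 11.14 and 11.46 (−0.77 ± 0.12, adjusted p = 0.0016). CDKN1A, which encodes p21, read 9.97 and 10.26 against 9.49 and 9.53 (−0.61 ± 0.12, adjusted p = 0.007); its adjusted p was 0.0586 when vehicle replicate 2 was left out and 0.071 for DHT 48 h replicate 1. Of 23 targets of p53, 10 fell and 0 rose (6 fell without DHT 48 h replicate 1), with a median of −0.34. The falls, 43.5% of the list against 6.38% of all genes, included TP53INP1, which promotes cell death and autophagy (−1.46 ± 0.13), and TP53I3 (−0.71 ± 0.10). Others were the stress sensor SESN2 (−0.66 ± 0.09) and GDF15, a stress-induced cytokine (−1.60 ± 0.09), whose 2 dimmer probe sets differed by −0.13 and 0.09. The 2 dimmer probe sets for TP53INP1 differed by −0.08 and 0.14 and did not pass.

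**Figure D4:**
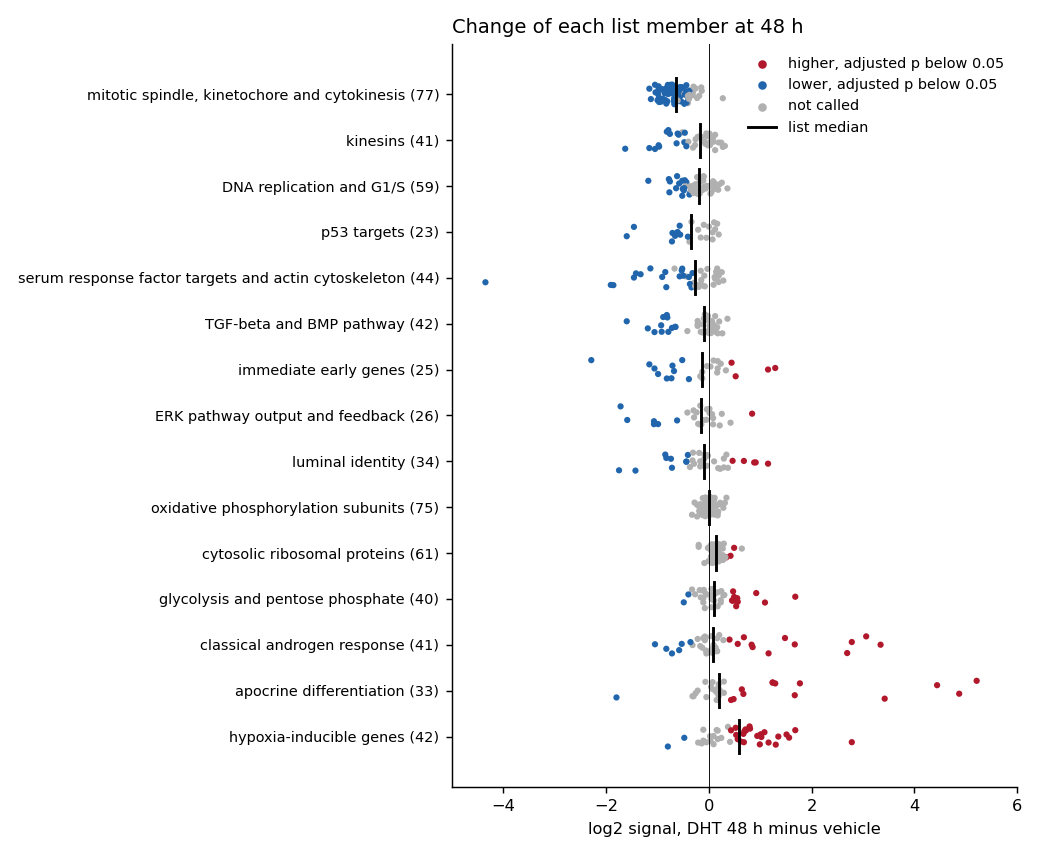
Log2 difference between DHT 48 h and vehicle (x axis) of each member of 15 gene lists (y axis, number of genes in brackets), with red for genes called higher, blue for genes called lower, grey for genes not called and a black bar at each list's median. The mitotic list is mostly blue, with a median of −0.65, the hypoxia-inducible list is mostly red, with a median of 0.59, and the oxidative phosphorylation list is grey, with a median of 0.01.

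Most of the listed genes that low oxygen induces rose. They are known as targets of the hypoxia-inducible factors, whose alpha subunits are destroyed when oxygen is present. The list of 42 also holds genes of the pathway itself, such as HIF1A, EPAS1, ARNT, VHL and HIF1AN. Of all 42, 25 rose (59.5%) and 2 fell, with a median of 0.59. NDRG1, given above, is also among the 25. PDK1, the kinase that keeps pyruvate out of mitochondria, read 8.98 and 8.97 in vehicle and 10.61 and 10.70 at 48 h (1.68 ± 0.14, 3.21-fold, adjusted p = 1.4e-05). P4HA1, a collagen prolyl hydroxylase, read 11.25 and 11.30 against 12.86 and 12.82 (1.56 ± 0.09, 2.95-fold, adjusted p = 1.4e-06), while its other probe set, with a mean of 4.6, differed by 0.10. BNIP3, a mitophagy receptor, read 11.72 and 11.61 against 13.17 and 13.19 (1.51 ± 0.10, 2.85-fold), and its relative BNIP3L rose by 0.94 ± 0.10. All the 48 h values in these genes were above all the vehicle values.

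PFKFB4, which makes a glycolytic activator, rose by 1.35 ± 0.12, and ANKRD37 went from 9.17 and 9.04 to 10.41 and 10.39 (1.30 ± 0.12, adjusted p = 3.5e-05), while its other probe set, with a mean of 5.0, differed by 0.03. VEGFA, the angiogenic growth factor, read 11.23 and 11.42 against 12.44 and 12.23 (1.01 ± 0.13, 2.01-fold, adjusted p = 0.00038). The ligand EFNA3 rose by 1.16 ± 0.13, the growth inhibitor DDIT4 by 0.72 ± 0.09 and the oxidase ERO1A by 0.80 ± 0.10. HIF1A, which encodes the alpha subunit itself, read 11.53 and 11.39 against 11.65 and 11.76 (0.24 ± 0.11, adjusted p = 0.21). The 2 members that fell, chosen after their values were seen, were EPAS1, which encodes the second alpha subunit, from 11.13 and 11.15 to 10.29 and 10.39 (−0.80 ± 0.09), and INSIG2 (−0.48 ± 0.09), which lost its call without DHT 48 h replicate 1 (adjusted p = 0.0511) and with equal housekeeping genes (adjusted p = 0.0588). The mean of all EPAS1 probe sets fell by 0.32, with an adjusted p of 0.227.

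The core of the hypoxia response element (ACGTG, both strands) was in 15 of 33 windows of the hypoxia list (45.5%), against 24.1% of all windows. It was also in 36.4% of 66 mitotic windows and 30.6% of 49 windows of DNA replication genes. On those lists 0 genes rose, so a raised share of the core was not particular to rising genes. In the classical androgen, apocrine and actin cytoskeleton lists its share was below that of all windows. The windows of P4HA1 (chr10:73096817-73097116, minus strand) and ANKRD37 (chr4:185396591-185396890, plus strand) are shown for this element, with its matches in capitals. Matches on opposite strands can overlap.
P4HA1: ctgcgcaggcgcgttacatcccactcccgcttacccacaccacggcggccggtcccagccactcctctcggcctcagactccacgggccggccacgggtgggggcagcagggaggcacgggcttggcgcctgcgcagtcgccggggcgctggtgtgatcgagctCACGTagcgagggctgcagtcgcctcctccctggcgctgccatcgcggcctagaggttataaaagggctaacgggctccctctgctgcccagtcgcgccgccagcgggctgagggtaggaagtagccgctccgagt
ANKRD37: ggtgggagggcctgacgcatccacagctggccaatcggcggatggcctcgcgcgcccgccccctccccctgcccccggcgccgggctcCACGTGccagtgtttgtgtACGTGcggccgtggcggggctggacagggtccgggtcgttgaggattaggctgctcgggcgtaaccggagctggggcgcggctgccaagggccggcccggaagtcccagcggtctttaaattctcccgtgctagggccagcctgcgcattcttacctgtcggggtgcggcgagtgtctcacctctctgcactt
These windows do not cover enhancers, and oxygen in the cultures was not measured.

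Of 40 genes of glycolysis and the pentose phosphate path, 12 rose and 2 fell (0 fell without vehicle replicate 1 or DHT 48 h replicate 1, and 1 without vehicle replicate 2 or either DHT 4 h array), with a median of 0.10. PFKP, a phosphofructokinase, read 11.05 and 11.14 in vehicle and 12.27 and 12.11 at 48 h (1.09 ± 0.10, 2.13-fold, adjusted p = 2.6e-05), and MPC2, a subunit of the mitochondrial pyruvate carrier, rose by 0.92 ± 0.09. Glucose phosphate isomerase GPI rose by 0.54 ± 0.09 and lactate dehydrogenase LDHA, chosen after its values were seen, by 0.49 ± 0.09. On this list 30% rose and 5% fell, against 3.13% and 6.38% of all genes. Of the respiratory chain, 0 of 75 oxidative phosphorylation subunits passed the test in either direction, with 7 at an unadjusted p below 0.05 and a median of 0.01. 1 passed without either DHT 16 h array. Of 26 genes of the tricarboxylic acid cycle 2 rose (0 without vehicle replicate 1 or either DHT 48 h array, and 1 without vehicle replicate 2 or either DHT 4 h array).

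**Figure D5:**
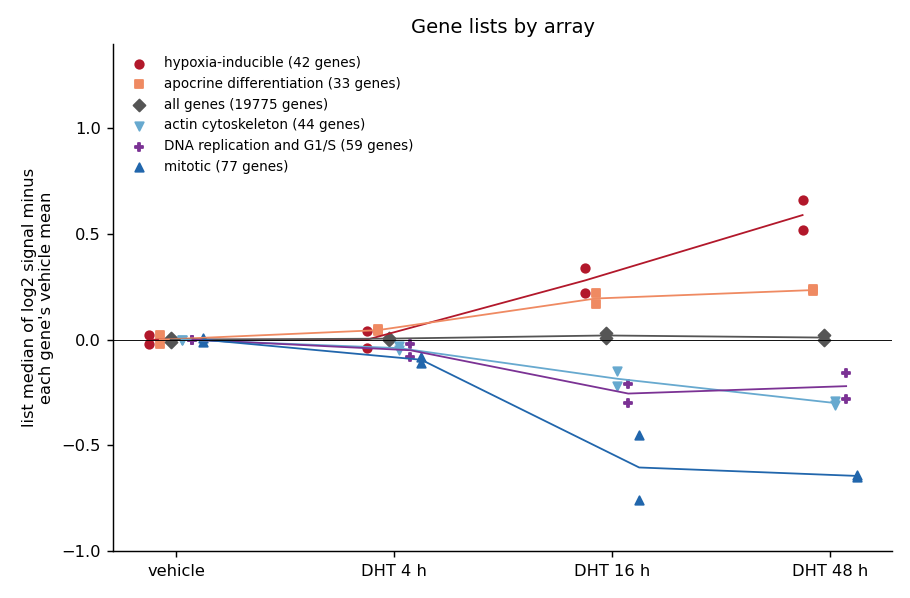
For each array, the median over a gene list of the log2 signal minus each gene's vehicle mean (y axis), for 5 lists and all genes (numbers of genes in brackets), in vehicle and after 4, 16 and 48 h of DHT (x axis, as categories), with lines through the group means. At 48 h the 2 arrays lie at 0.52 and 0.66 for the hypoxia-inducible list and at −0.65 and −0.64 for mitotic genes. All genes lie at 0.02 and 0.00.

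ACACA, FASN and ACSL1, which work in fatty acid synthesis and activation, rose. ACACA, the acetyl-CoA carboxylase that commits carbon to fatty acids, read 10.97 and 10.99 in vehicle and 12.12 and 12.24 at 48 h (1.2 ± 0.10, 2.30-fold, adjusted p = 1.6e-05), although its other, dimmer probe set differed by 0.15. FASN, the fatty acid synthase, read 13.69 and 13.57 against 14.74 and 14.44 (0.96 ± 0.12, 1.94-fold, adjusted p = 0.00049). ACSL1, which activates fatty acids, read 11.49 and 11.50 against 12.50 and 12.54 (1.03 ± 0.13). Of 27 genes of fatty acid synthesis and elongation, 5 rose (3 without vehicle replicate 1, vehicle replicate 2 or DHT 48 h replicate 1) and 2 fell (1 without vehicle replicate 1 or either DHT 48 h array). The elongation enzyme HACD2 fell by 0.85 ± 0.12. ACLY, which supplies acetyl-CoA and was chosen after its values were seen, did not pass the test (means of 12.68 in both groups, adjusted p = 0.997). Among enzymes of fatty acid breakdown, rises were seen in the medium-chain dehydrogenase ACADM (0.93 ± 0.16) and the peroxisomal thiolase ACAA1 (0.79 ± 0.10). The cholesterol carrier NPC2 of lysosomes rose by 0.64 ± 0.10, and PNPLA3, a lipid droplet enzyme, by 0.71 ± 0.09.

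The ERBB receptors are the main growth factor receptors of this cell type, and ERBB2 read 13.47 and 13.53 in vehicle and 12.85 in both 48 h arrays (−0.65 ± 0.09, 1.56-fold lower, adjusted p = 0.00093). The mean of its 3 probe sets differed by −0.41, with an adjusted p of 0.434. ERBB3 read 12.41 and 12.53 against 12.42 and 12.43 (−0.05 ± 0.09, adjusted p = 0.82). Of 26 ERBB receptors, ligands and inhibitors, 6 fell, 19 were not called and 1 rose: the ubiquitin ligase CBLB fell by 1.04 ± 0.12 and the docking protein GAB1 by 0.61 ± 0.09, while LRIG1, which sends ERBB receptors to degradation, rose by 0.62 ± 0.11. The mean of all LRIG1 probe sets differed by 0.42 (adjusted p = 0.142). The dimmer probe sets for CBLB differed by 0.03 and −0.22 and did not pass.

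Some genes that report activity of the ERK kinases fell. DUSP6, the phosphatase that ERK induces to switch itself off, read 12.51 and 12.49 in vehicle and 10.64 and 10.91 at 48 h (−1.72 ± 0.11, 3.30-fold lower, adjusted p = 1.8e-06), and its 2 other probe sets fell by 1.81 and 1.57. The feedback inhibitors SPRY1 and SPRY4 fell by 1.07 ± 0.10 and 1.07 ± 0.09, DUSP4 by 0.62 ± 0.10 and the receptor EPHA4 by 1.59 ± 0.11. Of 26 genes on this list 6 fell (23.1%, against 6.38% of all genes), 19 were not called and 1 rose, the stress-kinase phosphatase DUSP10 (0.84 ± 0.13). EGR1, the early response transcription factor, read 9.96 and 9.77 against 7.87 and 7.27 (−2.29 ± 0.17, 4.90-fold lower, adjusted p = 6e-06). Its dimmer probe sets showed smaller differences of −1.49 and −0.35, and the latter did not pass. Of 25 immediate early genes 10 fell (40%) and 4 rose (16%), against 6.38% and 3.13% of all genes. The falls included the orphan receptor NR4A2 (−1.16 ± 0.12), IER5 (−1.06 ± 0.12), IER3 (−0.99 ± 0.11) and JUND (−0.73 ± 0.10).

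The larger of the 4 rises on that list were those of KLF4 and MYC. MYC, the growth-promoting transcription factor, read 10.54 and 10.55 in vehicle and 11.60 and 11.79 at 48 h (1.15 ± 0.13, 2.22-fold, adjusted p = 0.00016). KLF4, which drives epithelial differentiation, read 9.58 and 9.51 against 10.70 and 10.98 (1.29 ± 0.12, 2.45-fold, adjusted p = 3.8e-05). WNT7B, a WNT ligand known as an androgen target in breast cells, read 9.81 and 10.16 against 10.70 and 10.60 (0.66 ± 0.12, 1.58-fold, adjusted p = 0.0036). The adjusted p for WNT7B was 0.0504 without DHT 48 h replicate 1, and its other probe set rose by 1.54. Among targets of WNT signalling, the transcription factor SOX9 fell from 9.01 and 8.93 to 7.59 and 7.68 (−1.34 ± 0.15). The Notch ligands JAG1 and DLL1 fell by 1.17 ± 0.15 and 1.29 ± 0.15. The other, dimmer probe set for DLL1 differed by 0.13 and did not pass, and those for JAG1 differed by −1.35 to 0.15.

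Genes of insulin-like growth factor signalling included large falls. IRS1, the adaptor that links the receptors for insulin and its relatives to PI3 kinase, read 10.51 and 10.55 in vehicle and 8.12 and 8.62 at 48 h (−2.16 ± 0.14, 4.47-fold lower, adjusted p = 1.8e-06). The binding protein IGFBP3 read 10.39 and 10.65 against 8.40 and 8.08 (−2.27 ± 0.13, 4.84-fold lower), and IGFBP2 fell by 1.07 ± 0.09. FOXO3, a transcription factor that insulin signalling holds in check, rose by 0.66 ± 0.11. Of 33 genes on this list 3 rose and 5 fell (3 without 1 of either vehicle array, either DHT 4 h array or either DHT 48 h array). PDE4B, which breaks down cyclic AMP, fell from 10.01 and 9.87 to 7.87 and 7.76 (−2.12 ± 0.10, 4.36-fold lower, adjusted p = 2.9e-07).

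Of 42 genes of the TGF-beta and BMP pathway, 12 fell (28.6%, against 6.38% of all genes), 30 were not called and 0 rose, with a median of −0.09. With equal housekeeping genes the median was 0.03, 12 fell and 1 rose. 3 of the inhibitors of differentiation, which BMP signals induce, fell. ID1 read 12.37 in both vehicle arrays and 11.55 and 11.33 at 48 h (−0.93 ± 0.10, adjusted p = 0.00012), ID2 read 13.28 and 13.39 against 12.25 and 12.30 (−1.06 ± 0.09), and ID3 read 11.72 and 11.85 against 11.02 and 10.92 (−0.82 ± 0.11). The family member ID4, chosen after its values were seen, did not pass the test (0.06 ± 0.12, adjusted p = 0.82). The ligand TGFB2 fell by 1.19 ± 0.13, the receptor TGFBR1 by 0.92 ± 0.14 and the decoy receptor BAMBI by 0.81 ± 0.10. The other 2 probe sets for TGFBR1 differed by −0.25 and 0.13, and their mean with the first by −0.35 (adjusted p = 0.093). Among nuclear receptors, NR2F1 (−0.94 ± 0.11) and the vitamin D receptor VDR (−0.71 ± 0.10) fell, and the estrogen-related receptor ESRRG rose (0.78 ± 0.09). The aryl hydrocarbon receptor AHR fell from 8.26 and 8.37 to 7.19 and 7.15 (−1.14 ± 0.14, adjusted p = 0.00039), and so did its targets CYP1A1 and CYP1B1, the latter from 13.25 and 13.31 to 11.23 and 11.14 (−2.10 ± 0.10, 4.27-fold lower, adjusted p = 1.9e-07). These were the 3 that fell of 13 genes on that receptor's list, where 0 rose.

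Of 44 actin cytoskeleton genes and targets of serum response factor, 18 fell, 26 were not called and 0 rose (11 fell without DHT 48 h replicate 1, and 1 rose without vehicle replicate 2), with a median of −0.28. Beside PALLD, VCL, or vinculin, which ties actin to focal adhesions, read 12.81 and 13.07 in vehicle and 10.97 and 11.08 at 48 h (−1.91 ± 0.10, 3.77-fold lower, adjusted p = 7.1e-07); its other, dimmer probe set differed by −0.09. ZYX, or zyxin, read 11.15 and 11.26 against 9.71 and 9.87 (−1.42 ± 0.10). The heavy chain of non-muscle myosin MYH9 read 13.06 and 13.12 against 11.80 and 11.73 (−1.33 ± 0.10), and the tropomyosin TPM4 read 12.14 and 12.19 against 10.79 and 10.61 (−1.46 ± 0.17). CNN2, a calponin, fell by 1.14 ± 0.09. In all of them both 48 h arrays were below both vehicle arrays. On the list as a whole 40.9% fell, against 6.38% of all genes.

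Serum response factor binds the CArG box, an A/T-rich core between CC and GG. A CArG box was in 7 of 38 windows of the actin list (18.4%), against 1.22% of all windows. FHL2 (chr2:105438464-105438763, minus strand) and TPM4 (chr19:16067288-16067587, plus strand) are shown as the members with one and the largest falls, with the box in capitals. FHL2 read 8.41 and 8.17 in vehicle and 6.01 and 6.85 at 48 h.
FHL2: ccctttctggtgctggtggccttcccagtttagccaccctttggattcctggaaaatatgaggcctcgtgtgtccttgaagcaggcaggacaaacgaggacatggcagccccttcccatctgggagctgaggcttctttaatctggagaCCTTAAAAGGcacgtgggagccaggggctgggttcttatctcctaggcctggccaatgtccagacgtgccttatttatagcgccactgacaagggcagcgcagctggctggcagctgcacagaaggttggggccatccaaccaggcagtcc
TPM4: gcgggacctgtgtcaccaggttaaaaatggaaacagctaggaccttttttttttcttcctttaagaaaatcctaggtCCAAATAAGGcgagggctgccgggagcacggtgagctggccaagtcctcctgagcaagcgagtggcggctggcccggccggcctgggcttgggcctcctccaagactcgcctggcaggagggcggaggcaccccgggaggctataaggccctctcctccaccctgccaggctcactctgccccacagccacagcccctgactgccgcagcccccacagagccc
For comparison, the half-site of the androgen receptor (AGAACA, both strands) was in 9.38% of 32 windows of the classical androgen list, in 17.9% of 28 windows of the apocrine list and in 11.3% of all windows.

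The matrix protein THBS1 read 13.09 and 12.93 in vehicle and 11.01 and 11.50 at 48 h (−1.75 ± 0.15, 3.37-fold lower), and the laminin chain LAMB1 fell by 0.70 ± 0.10. Collagens and matrix proteases, counted next, rose in 3.12% and fell in 3.12%, against 3.13% and 6.38% of all genes. Of 96 collagens and matrix proteases 3 rose and 3 fell, with a median of 0.06 (1 fell without either vehicle or either DHT 48 h array, and 1 rose without DHT 48 h replicate 2). Of 54 integrins, laminins and adhesion genes 7 fell and 1 rose, with a median of 0.02 (2 rose without vehicle replicate 2), the riser being ITGB5 (0.73 ± 0.12), 1 of whose other probe sets differed by 0.07. Of 28 genes of the YAP and TAZ pathway, which senses tension, 7 fell, with AJUBA (−1.82 ± 0.09), AMOTL2 (−1.45 ± 0.11), the kinase LATS2 (−1.14 ± 0.14) and CCN1 (−0.82 ± 0.11) among them, and 1 rose (0 without vehicle replicate 2 or DHT 48 h replicate 2). Of 39 claudins and tight junction proteins 3 rose and 4 fell (7.69% and 10.3%, against 3.13% and 6.38% of all genes), and 1 rose when any vehicle, DHT 4 h or DHT 48 h array was left out. CLDN8 rose, while CLDN4 (−0.74 ± 0.10), OCLN, or occludin (−0.76 ± 0.10), and the scaffold TJP1 (−0.69 ± 0.10) fell. The plakoglobin gene JUP fell by 0.69 ± 0.10 and the desmosomal cadherin DSG2 rose by 0.62 ± 0.12. The guidance cues NTN4, or netrin 4, and SEMA3C fell by 2.08 ± 0.10 and 1.97 ± 0.15. Calcium-binding proteins also went both ways, with S100P from 8.10 and 8.18 to 9.92 and 9.81 (1.73 ± 0.10, 3.31-fold) and S100A10 from 11.34 and 11.41 to 12.71 and 12.86 (1.41 ± 0.09), against falls in ANXA3 and ANXA6 (−1.28 ± 0.09). The other, dimmer probe set for ANXA6 differed by −0.06.

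Of 61 cytosolic ribosomal proteins 3 rose and 0 fell, with a median of 0.14 (0 rose without vehicle replicate 1, and 1 without either DHT 48 h array; 8 rose with equal housekeeping genes). Of 53 nucleolar ribosome biogenesis genes 2 rose and 0 fell, also with a median of 0.14 (1 rose without 1 of either vehicle array, either DHT 4 h array or DHT 48 h replicate 2; 3 without DHT 48 h replicate 1). Of 17 aminoacyl-tRNA synthetases, which load amino acids onto tRNA, 4 rose (23.5%) and 0 fell, but 0 rose when vehicle replicate 1 or DHT 48 h replicate 2 was left out, 2 for vehicle replicate 2 and 1 for DHT 48 h replicate 1. Of 75 mitochondrial ribosomal proteins 7 rose and 3 fell (1 and 0 without vehicle replicate 1, 4 and 1 without vehicle replicate 2; 1 rose without DHT 48 h replicate 2, 0 fell without DHT 48 h replicate 1, and 1 fell without either DHT 4 h array). Of 46 translation factors 4 rose and 2 fell (1 rose without vehicle replicate 1 or either DHT 48 h array, 2 without vehicle replicate 2 or either DHT 4 h array; 1 fell without vehicle replicate 1 or DHT 48 h replicate 1). The rises were 4.92% of cytosolic ribosomal proteins and 3.77% of nucleolar genes, near the 3.13% of all genes. EEF1A2, an elongation factor variant, fell from 13.22 and 13.30 to 12.42 and 12.40 (−0.85 ± 0.09, adjusted p = 0.00012). ASNS, the asparagine synthetase that the stress factor ATF4 induces, rose from 9.35 and 9.39 to 10.09 and 10.43 (0.89 ± 0.12), although its other, dim probe set differed by 0.26. In the secretory path, the sialyltransferase ST6GAL1 rose by 1.0 ± 0.12 and its counterpart ST3GAL1 fell by 1.49 ± 0.10. The dimmer probe sets for ST6GAL1 differed by −0.1 and 0.29 and did not pass, while those for ST3GAL1 fell by 1.27 and 1.44. Of 41 lysosome and autophagy genes 7 fell and 0 rose (4 fell when vehicle replicate 2 was left out and 3 for DHT 48 h replicate 1; 1 rose without either DHT 16 h array), led by the autophagy protein WIPI1 (−1.63 ± 0.11), the sulfatase IDS (−1.15 ± 0.13) and MITF, a regulator of lysosomal genes (−1.01 ± 0.12). NFE2L2, which encodes the oxidative stress regulator NRF2, fell by 0.95 ± 0.11, while its dimmer probe sets differed by −0.3 and −0.06 and did not pass.

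Of 327 solute carriers 16 rose and 20 fell, which is 4.89% and 6.12%, near the 3.13% and 6.38% of all genes. With equal housekeeping genes 26 rose and 14 fell. Leaving out vehicle replicate 1 gave 8 and 12, and leaving out DHT 48 h replicate 1 gave 9 and 11. The chloride exchanger SLC26A3 rose from 4.55 and 4.64 to 6.35 and 6.57 (1.86 ± 0.11, 3.63-fold), and the peptide carrier SLC15A2 rose by 1.12 ± 0.16. Their dimmer probe sets differed by 0.12 for SLC26A3 and by 0.23 and 0.19 for SLC15A2, and did not pass. The sodium-potassium-chloride carrier SLC12A2 fell by 1.47 ± 0.09, the prostaglandin carrier SLCO2A1 by 1.18 ± 0.10 and the iron exporter SLC40A1 by 1.03 ± 0.11. The potassium channel KCNMA1 rose by 0.87 ± 0.10, although it differed by 0.24 (adjusted p = 0.239) without _s_at and _x_at probe sets. The potassium channel KCNK2 fell by 1.2 ± 0.12. AQP3 was the only one of 11 aquaporins on the arrays to pass the test. TDO2, the first enzyme of tryptophan breakdown, fell with KMO, from 8.54 and 8.22 to 6.07 and 6.45 (−2.12 ± 0.16, 4.35-fold lower, adjusted p = 8.3e-06). The other, dimmer probe set for TDO2 differed by −0.33 and did not pass.

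Markers of other cell types are set against the 3.13% of all genes that rose and the 6.38% that fell. Of mesenchymal and fibroblast markers 4.17% fell, of immune and endothelial markers 4.55% fell, and 0% rose in both. Among basal and myoepithelial markers 14.3% rose and 7.14% fell. Of 24 mesenchymal and fibroblast markers 0 rose and 1 fell, the actin gene ACTA2, which lost its call without DHT 48 h replicate 1 (adjusted p = 0.0503). 1 rose without vehicle replicate 2. Of 22 immune and endothelial markers 0 rose and 1 fell, the T-cell marker CD2 (−0.33 ± 0.09, adjusted p = 0.046), which lost its call without each vehicle, DHT 4 h or DHT 48 h array. Of 14 basal and myoepithelial markers, KRT5 (0.51 ± 0.10) and KRT16 (0.45 ± 0.12) rose and the cadherin CDH3 fell (−0.54 ± 0.10). Neither rise passed when vehicle replicate 1 (adjusted p = 0.0617 for KRT5 and 0.144 for KRT16) or DHT 48 h replicate 1 (0.076 and 0.311) was left out, and KRT16 did not pass without vehicle replicate 2 (0.119) or either DHT 4 h array (0.0549).

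The direct comparison of DHT 48 h with DHT 16 h called 69 genes higher (0.349%) and 95 lower (0.48%), and 2125 genes had an unadjusted p below 0.05. It shares the 48 h arrays with the comparison against vehicle, and DHT 16 h replicate 2 had a 3′ to 5′ ACTB difference of 1.52; without that array 45 genes were higher and 23 lower, and without DHT 16 h replicate 1 the counts were 275 and 369. Without DHT 48 h replicate 1 they were 31 and 14, and without DHT 48 h replicate 2, 21 and 16. MYBPC1 was 2.36 above its 16 h level, CYP4F8 1.46 and HSD11B2 1.29, and each was already above vehicle at 16 h. ANKRD37 was 1.9 above its 16 h level, which lay below vehicle by 0.6 (log2 difference −0.6, adjusted p = 0.0105). EGR1 was 2.51 below its 16 h level, TNC 1.59 and DUSP6 1.22 below theirs. Of the 77 mitotic genes 0 passed the test between 48 h and 16 h. Of the 42 genes on the hypoxia list 7 were higher at 48 h.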

How the data were processed

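RNA from MDA-MB-453 cells was measured on Affymetrix expression arrays. The authors deposited 1 table of log2 signals, made by RMA per the labels and the submitters' processing notes, which subtracts background, makes the distributions of the arrays alike and sums probes into probe sets. A shift shared by most genes would therefore be removed. The table holds 54675 probe sets, of which 41091 name 1 gene, 1801 several and 11721 none, besides 62 control sets. One probe set per gene was kept (highest mean over the 8 arrays), which left 19775 genes. Names came from the platform annotation, and 37 of the symbols were not in the reference gene table used here.

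All 8 arrays entered a model with 1 mean per group in limma 3.58.1 (R 4.3.3), with 4 residual and 7.21 prior degrees of freedom and Benjamini-Hochberg adjustment over all genes. A gene was called at an adjusted p below 0.05. The test was tried first on simulated data. Tables and figures were made with pandas 2.3.3 and matplotlib 3.10.9. The number of arrays, 2 a group, limits the precision. The genes named were the 15 largest called changes in each direction, the 6 largest in each direction against DHT 16 h, up to 8 called members of each of 81 gene lists, and a set of genes named whether called or not. The comparison, the lists and this rule were chosen with earlier results of these data known. Lists overlap: of 3468 listed genes that were measured, 237 were on more than 1 list. Alternatives were other normalisations, filters, probe set rules and tests, and leaving out each array.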

Additional observations from a re-analysis of the deposited data

Results flagged for a closer look

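For some genes named above, the level at 48 h differed from the level at 16 h by limma's test of that difference at an adjusted p below 0.05, with 2 arrays a group. Values are log2 differences, 48 h minus 16 h. Among genes above vehicle at 48 h, they were 2.36 for MYBPC1, 1.9 for ANKRD37, 1.46 for CYP4F8, 1.29 for HSD11B2, 1.25 for MIR210HG, 1.2 for S100P and 1.15 for S100A10. Smaller differences were 0.98 for ADRA2A, 0.95 for DDIT4, 0.95 for VLDLR, 0.88 for FKBP5, 0.88 for C1orf116, 0.87 for PIP, 0.85 for UGT2B28 and 0.85 for VEGFA. They were 0.81 for SLC26A3, 0.78 for AQP3, 0.78 for ERO1A, 0.59 for SRD5A1, 0.58 for ALCAM and 0.48 for AZGP1.

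Among genes below vehicle at 48 h, the differences were −2.51 for EGR1, −1.59 for TNC, −1.22 for DUSP6, −1.21 for AMIGO2, −1.16 for IRS1, −1.1 for SPRY4, −1.03 for TFF1, −1.01 for DOCK2 and −1.01 for PDE4B. They were −0.96 for TP53INP1, −0.92 for PHLDB2, −0.78 for AMOTL2, −0.78 for STS, −0.77 for ANXA6, −0.76 for SIPA1L2, −0.72 for ST3GAL1 and −0.69 for DUSP4. The rest were −0.61 for KMO, −0.61 for NR4A2, −0.56 for JUND, −0.55 for AJUBA, −0.53 for FOXA1, −0.53 for GATA3, −0.53 for IGFBP2 and −0.48 for EEF1A2.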

How the results depend on the processing

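Against vehicle, leaving out 1 array gave 293 to 739 higher and 501 to 1472 lower genes. A minimum change of 1.2-fold gave 181 and 361, and equal housekeeping genes gave 1121 and 738. Leaving out _s_at and _x_at probe sets gave 401 higher genes. Against DHT 16 h, leaving out 1 array gave 21 to 275 higher and 14 to 369 lower genes. There, a fit to the 4 arrays alone gave 34 and 29, the 1.2-fold minimum 23 and 13, and every probe set on its own 43 and 31. The mean of probe sets gave 54 lower genes, and leaving out _s_at and _x_at probe sets gave 59 lower genes. GDF15 turned to 0.09 without _s_at and _x_at probe sets. The cause of these shifts was not tested.

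The labels do not say whether replicate numbers pair the arrays. Same-numbered deviations correlated at −0.244 to 0.196 between groups. With 2 arrays a group, these values cannot show whether same-numbered arrays shared a day or batch. With a replicate block, 561 genes were higher and 1168 lower against vehicle, and 63 and 72 against DHT 16 h. A crossed pairing of vehicle and 48 h arrays, added after seeing the data, gave 979 and 1844. RMA values carry no detection calls, so changes of dim genes are less certain.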
